A study of Caenorhabditis elegans with 4 samples.

Results

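The regions described here are strong binding sites of EGL-27 inside introns of autosomal genes of Caenorhabditis elegans. They were taken from the authors' pooled list of 28056 peaks on the build ce11, ranked by the deposited score. Of the peaks of ranks 1 to 2000, 1510 lay on the 5 autosomes. A peak was a member when its summit lay inside a protein-coding gene, in no annotated exon, and outside the window from 1000 bp upstream to 200 bp downstream of every protein-coding 5′ end. This rule gave 282 members. The other 1228 autosomal peaks were 728 in promoter windows, 339 in intergenic DNA and 161 in exons. The members were thus chosen by the deposited score, and scores and pooled ranks are given as descriptions.

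EGL-27 was measured by chromatin immunoprecipitation and sequencing (ChIP-seq) in whole larvae of the third stage (L3), with males and females pooled. There were 4 biological replicates of 1 group, all of strain OP177 (unc-119(ed3) III; wgIs177), in which EGL-27 carries GFP-FLAG at its C terminus and is stably expressed from a transgene. No other genotype, stage or treatment was compared, and the labels name egl-27 as the antibody target. The sources used here do not give the promoter of the transgene or its copy number. Whole larvae mix all tissues, so a peak cannot be placed in a cell type, and a weak peak in many cells cannot be told apart from a strong peak in few.

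EGL-27 belongs to the MTA family, whose members are subunits of the chromatin remodelling and deacetylase complex NuRD. It holds a zinc finger of the GATA type and in the worm it is known to act in cell polarity, cell migration and the patterning of the larva, in part with Wnt signals. Introns of worm genes are mostly short. Long introns are known places of enhancers, of starts of alternative transcripts and of nested small RNA genes.

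The lists hold peaks together with background, and the peaks have a fixed width with the summit at the middle, 370 bp for 99.9% of pooled peaks. Replicates 1 to 4 had lists of 30000, 6602, 19304 and 12990 peaks, and all were called against 1 shared control. A further list of 814 peaks was filtered by the authors with the irreproducible discovery rate (IDR), which weighs whether peaks keep similar ranks across replicates. In each replicate the 2000 strongest peaks were set against the rest of its list. The cut therefore takes a larger share of the short list of replicate 2 than of the long list of replicate 1. Peaks below the cut can include background, and how many do was not tested. A difference between strong and weaker peaks, here and in the pooled list, can thus be one between peaks and background. Because the pooled list was called on the same 4 libraries, the replicates are not independent of the choice of members.

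The sequences at the 6 strongest members are shown first because the later results turn on short words in them. The first is the whole peak in egl-27, and each other one is 50 bp either side of the summit, on the + strand of ce11, from RefSeq. Capitals mark 5 words on either strand wherever one occurs. The word GAGAGAG is a repeat of the pair GA. A core site of GATA-type zinc fingers is TGATAA, and other forms of that site were not searched. The E-box searched was CACGTG, a site of basic helix-loop-helix factors. The word TGANTCA is a site type of bZIP factors, and the last word, TCTGCGTC, came from the windows themselves.
egl-27, rank 5, chrII:6842704-6842888: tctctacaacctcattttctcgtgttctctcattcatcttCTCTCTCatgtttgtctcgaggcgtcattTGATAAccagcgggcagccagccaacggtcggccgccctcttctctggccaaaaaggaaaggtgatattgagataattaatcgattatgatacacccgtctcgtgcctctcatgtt
Y111B2A.12, rank 11, chrIII:12612625-12612725: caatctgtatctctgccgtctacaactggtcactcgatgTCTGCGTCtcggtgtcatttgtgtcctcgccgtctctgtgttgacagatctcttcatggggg
pqn-41, rank 13, chrIII:1925301-1925401: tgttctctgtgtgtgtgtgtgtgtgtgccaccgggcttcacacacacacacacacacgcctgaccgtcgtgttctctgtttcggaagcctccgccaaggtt
pqn-41, rank 31, chrIII:1923672-1923772: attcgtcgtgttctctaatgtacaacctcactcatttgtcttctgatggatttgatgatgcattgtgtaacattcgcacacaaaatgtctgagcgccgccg
egl-27, rank 36, chrII:6836377-6836477: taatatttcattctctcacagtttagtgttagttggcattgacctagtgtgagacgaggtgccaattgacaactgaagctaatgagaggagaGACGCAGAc
W06H8.6, rank 37, chrV:6224663-6224763: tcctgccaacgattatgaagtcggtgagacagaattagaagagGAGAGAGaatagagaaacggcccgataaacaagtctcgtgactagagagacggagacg

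No word is shared by all of these windows. The egl-27 peak of rank 5 carries TGATAA starting at -22 from the summit and a GA repeat at -51, which is just outside the window used for counts. The summit window of Y111B2A.12 carries TCTGCGTC at -11, and the second egl-27 window carries the same word in reverse at 42. The W06H8.6 window carries a GA repeat at -7. Both pqn-41 windows have none of the words. That of rank 13 has runs of GT and AC repeats, and 54.5% of it is masked as repeat.

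The egl-27 gene itself stands apart from the other hosts. The gene (WBGene00001194, II, 6835008 to 6847908, + strand) held 9 members, the highest number of any gene. Within 50 kb of it lay 24 peaks of ranks 1 to 2000, against a mean of 1.83 per 100 kb over the autosomes. Counting the member itself, each egl-27 member had 23 such peaks within 25 kb, the member in the neighbouring gene tbc-6 had 20, and the median over members was 3. The next highest number was 11, at W06H8.6. The strain carries extra copies of egl-27 sequence in the transgene, and signal from the endogenous gene and from the transgene cannot be told apart in these lists. The labels do not say how much of the locus the transgene holds. Without the peaks within 50 kb of egl-27, 272 members remained.

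The strongest member lay at rank 5 of the pooled list, in intron 10 of the 12 introns of egl-27. It was 7787 bp from the 5′ end of the gene, at II, 6842704 to 6842888. It ranked 1, 24, 17 and 1 in replicates 1 to 4. The second egl-27 member (pooled rank 36, intron 2) ranked 50, 348, 55 and 35. That of intron 5 (pooled rank 108) ranked 92, 164 and 66 in replicates 1, 3 and 4 and had no summit within 200 bp in replicate 2. The lower egl-27 members varied more: that of pooled rank 565 was found at 1122 and 87 in replicates 1 and 3 and in neither of the others.

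Outside that locus the strongest members lay in Y111B2A.12 and pqn-41. The member in Y111B2A.12 (III, 12612546 to 12612770, pooled rank 11) ranked 7, 233, 20 and 4 in replicates 1 to 4. It lay in an intron of 7076 bp. The gene pqn-41 encodes a polyglutamine protein that is known for its part in the death of the male linker cell. All 4 of its members, of pooled ranks 13, 31, 60 and 109, lay in its intron 15 of 7770 bp. The strongest of them (III, 1925252 to 1925439) ranked 10, 40, 21 and 5. That of pooled rank 31 ranked 39, 97 and 7 in replicates 1, 3 and 4, but 4625 in replicate 2. The pqn-41 member of rank 60 ranked 57, 1057, 144 and 348, and that of rank 109 ranked 180, 179, 431 and 40. Thus 3 of the 4 were among the 2000 strongest of every replicate. A member in T28B11.1 (pooled rank 75) lay in a first intron of 17091 bp and ranked 73, 133 and 149 in replicates 1, 3 and 4, with no summit in replicate 2.

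The 282 members fell in 192 host genes, of which 143 held 1 member, 30 held 2 and 19 held 3 or more. The last 19 genes together held 79 members. Members also lay near each other: 140 had another member within 10 kb, and 16 lay under 370 bp from another, so that their peaks overlap and can match the same replicate peak. Host genes were long, with a median of 8753 bp, against 4781 bp for autosomal genes whose intronic peaks were all weaker.

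**Figure D1:**
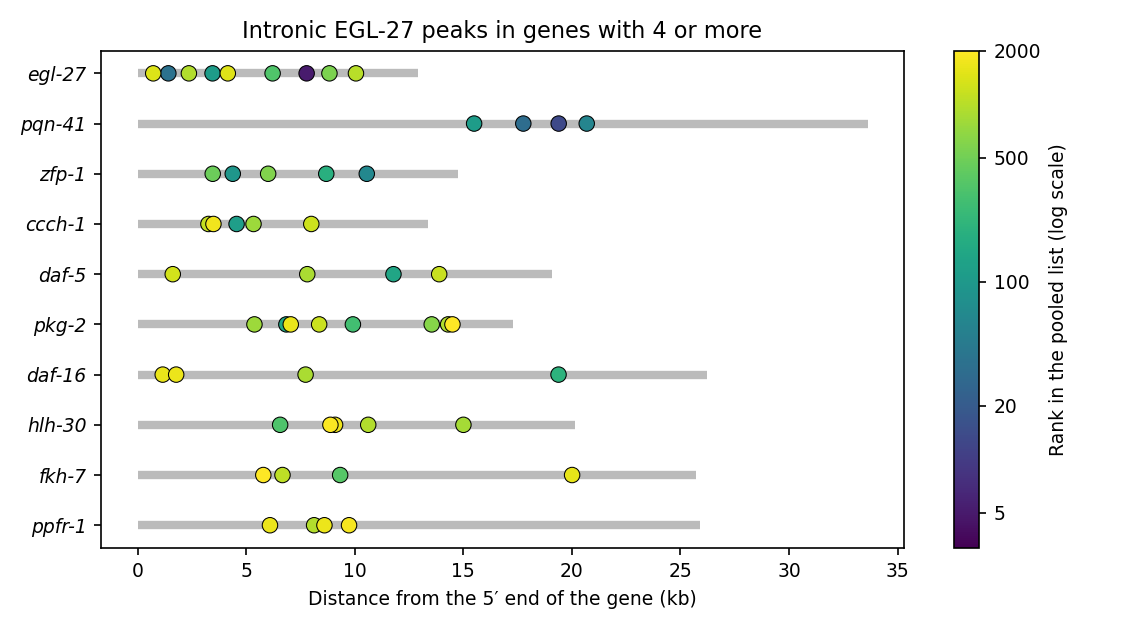
Summits of members along the 10 genes that held 4 or more. The x axis is the distance from the 5′ end of the gene in kb, grey bars are gene lengths, each point is 1 member and its colour gives its rank in the pooled list on a log scale. The 9 members of egl-27 spread over much of the gene, while the 4 of pqn-41 sit in 1 intron.

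The gene pkg-2, which encodes a cGMP-dependent protein kinase, held 8 members in introns 5 and 6. The strongest of them (pooled rank 144) ranked 53, 41, 1578 and 188 in replicates 1 to 4, and the second (281) ranked 160, 245 and 827 in replicates 1, 3 and 4 with no summit in replicate 2. The member of rank 1620 lies beside that of 144 and matches the same peaks of replicates 1 and 2.

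The gene zfp-1, the worm homologue of the chromatin factor AF10, held 5 members. That of rank 94 ranked 44, 64, 125 and 82, high in every replicate. That of rank 65 ranked 66, 104, 975 and 27. That of rank 183 was strong in replicates 1 and 3, at 37 and 248, but ranked 8903 in replicate 4 and was missing in replicate 2. The zinc finger gene ccch-1 also held 5, and the strongest (rank 115) ranked 463, 31, 230 and 194.

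Transcription factors of stress and lifespan were among the hosts. The gene hlh-30, which encodes the homologue of TFEB, a regulator of autophagy and lysosomes, held 5 members of pooled ranks 331 to 1942. The strongest ranked 344, 658 and 169 in replicates 1, 3 and 4, and none of the 5 was among the 2000 strongest of all 4 replicates. The gene daf-16, which encodes the FOXO factor of insulin signalling, held 4 members. Its strongest (pooled rank 197) ranked 185, 616, 2172 and 243 in replicates 1 to 4. The other 3 daf-16 members, of ranks 888, 1598 and 1652, were found in replicates 1 and 4 only. The gene skn-1, which encodes an Nrf-type factor of the oxidative stress response, held 3 members of ranks 575, 1093 and 1117, all in its first intron of 4347 bp and all missing in replicate 2.

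Genes of signalling pathways also appeared. The gene daf-5, which encodes a Sno and Ski homologue of the TGF-beta pathway, held 4 members in a first intron of 14446 bp. Its strongest (pooled rank 139) ranked 370, 132, 60 and 303. The gene mpk-1, which encodes the ERK kinase, held 1 member (pooled rank 190) that ranked 360, 756, 149 and 523. The gene lag-1, which encodes the DNA-binding factor of Notch signalling, held 3 members in its first intron. The strongest (256) ranked 216, 5363, 185 and 615, and those of ranks 326 and 1449 match the same peak of replicate 1. The gene din-1, whose product is a corepressor partner of the nuclear receptor DAF-12, held 3. Other hosts with 3 or 4 members were fkh-7 and ppfr-1, each with 4, and Y43F8B.2, D2023.3, mnk-1, ell-1, unc-43 and vhp-1, each with 3. The ell-1 members of ranks 484 and 1025 match the same peak of replicate 1. Those of ranks 72 and 1135 in D2023.3 match the same peaks of replicates 2 and 4.

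Members were counted in 16 gene lists, beside the 192 of 3341 autosomal genes with any intronic pooled peak that held a member (5.75%). Genes with over 10 kb of intron are the nearer comparison for long genes, and 64 of 401 of these held one (15.96%). The insulin, TOR and ageing list had 2 of 9 (daf-16 and skn-1) and the Ras, Notch and EGF list 2 of 10 (mpk-1 and lag-1). The TGF-beta list had 1 of 3 (daf-5), the heterochronic list 1 of 7 (lin-29, rank 692), the Wnt list 1 of 10 (lit-1, a Nemo-like kinase, ranks 819 and 1558) and the NuRD list 1 of 1 (egl-27). Adhesion and axon guidance genes had 3 of 27 (unc-52, hmr-1 and vab-10, the strongest at rank 1812), and the median total intron length in that list was 7236.5 bp. Ion channel and synaptic genes had 1 of 24 (unc-43, the CaM kinase II). Nuclear hormone receptors had 3 of 51 (nhr-19, nhr-31 and nhr-22). No member lay in the lists of Hox genes (0 of 4), GATA factors (0 of 3), homeobox genes (0 of 12), muscle genes (0 of 9), ribosomal proteins (0 of 2), splicing and RNA binding (0 of 9) or chromatin modifiers (0 of 14). These lists are short and not complete, and no list was tested. The chromatin factor gene zfp-1, for example, held 5 members but was not in the list of chromatin modifiers.

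Introns held a smaller share of strong peaks than of weak ones. The intronic class covered 30.2% of autosomal bases and took 28.4% of the weaker autosomal pooled peaks, but 18.7% of those of ranks 1 to 2000. The weaker share lay near that of bases, and the part of background among weaker peaks was not tested. The share was 19.7% in ranks 1 to 500 and 19.2% in ranks 1501 to 2000, and rose to 23.7% in ranks 2001 to 4000 and 29.6% beyond rank 16000. In replicates 1 to 4 the intronic share was 20.5%, 25.6%, 24.2% and 21.1% among autosomal peaks of the 2000 strongest and 27.8%, 28.8%, 28.2% and 26.96% among the rest. The share was lower among the strong peaks in every replicate. The difference was -5.11 ± 1.87 percentage points (SD, n = 4; exact sign-flip permutation p = 0.13, two-sided). With 4 replicates this is the smallest p possible, so no comparison over replicates can pass 0.05. There were 14 such comparisons, and p = 0.13 became 0.146 after Benjamini-Hochberg adjustment in the exact tests.

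**Figure D2:**
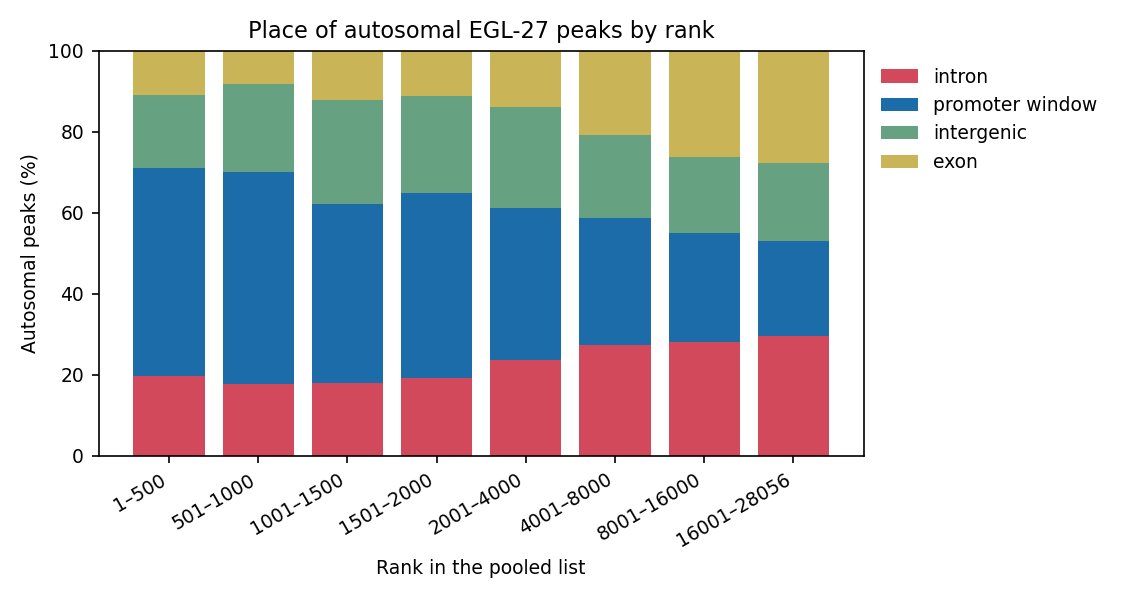
Place of autosomal peaks of the pooled list by rank. Bars are stacked shares in percent of the autosomal peaks in each range of ranks, in introns, promoter windows, intergenic DNA and exons, each defined as in the rule for members. The intronic share lies between 17.8% and 19.7% up to rank 2000 and reaches 29.6% in the weakest peaks.

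Members lay in long introns. The intron holding the summit had a median length of 3173 bp, from 42 to 19925 bp, against 1043 bp for the 5982 weaker intronic peaks. Over all bases of the intronic class the median was 956 bp. Introns over 5 kb held 85 members (30.1%), 14.6% of the weaker peaks and 10.5% of the bases. Introns under 500 bp held 34 members (12.1%), 26.6% of the weaker peaks and 27.8% of the bases. By replicate, from 1 to 4, the median log2 length in bp was 11.6, 10.3, 11.2 and 11.4 for strong peaks and 9.92, 9.98, 9.96 and 10.04 for the rest. The difference of 1.16 ± 0.589 on the log2 scale (SD, n = 4) was above 0 in 4 of 4 (exact sign-flip permutation p = 0.13), and smallest in replicate 2.

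First introns held 90 members (31.9%), against 23.3% of all 6264 autosomal intronic peaks and 21.1% of intronic bases. For replicates 1 to 4 the first-intron share of strong peaks was 31.8%, 22.6%, 25.2% and 34.97%, and 22.5%, 22.4%, 22.9% and 23.4% of the rest. The difference of 5.81 ± 5.47 points (SD, n = 4; exact sign-flip permutation p = 0.13) was close to 0 in replicate 2. It fell to 1.67 points, above 0 in 2 of 4 replicates, when weaker peaks were weighted to the intron lengths of the strong ones (exact permutation p = 0.625). The median distance from the host's 5′ end was 4391 bp, from 244 to 38879 bp, against 2974 bp for weaker intronic peaks.

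Part of the members lay at starts of other transcripts. The rule for members used the outermost 5′ end of each gene, and many genes have annotated transcripts that begin further in. A window of the same size around such an inner 5′ end held 72 members (25.5%), against 15.9% of all autosomal intronic peaks. In replicates 1 to 4 the share was 23.2%, 19.5%, 23.3% and 23.0% of strong peaks and 14.1%, 15.5%, 14.7% and 16.3% of the rest. All 4 strong shares were above all 4 others, with a difference of 7.09 ± 2.29 points (SD, n = 4; exact sign-flip permutation p = 0.13). Weighting to intron length left 6.98 points. Among these members were the strongest of hlh-30, with the summit at -257 bp from an inner 5′ end, and of ccch-1, at -221 bp. The remaining 210 members lay in no such window.

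Non-coding genes lay near a share of the members, which includes some at inner transcript starts, such as that of rank 115 in ccch-1. An annotated non-coding gene lay within 200 bp of 53 members (18.8%), against 4.68% of all autosomal intronic peaks. By kind, 15 members lay at snoRNA genes, 11 at tRNA genes, 2 at snRNA genes, 2 at microRNA genes and 34 at genes annotated only as ncRNA, and a member can count under more than 1 kind. The strongest at a snoRNA gene was that in Y43F8C.7 (rank 125, beside Y43F8C.22), which ranked 724, 1200, 156 and 38 in replicates 1 to 4. That in rol-3 (rank 280, beside C16D9.11) ranked 504, 203, 384 and 739. The strongest at a tRNA gene lay in cye-1, which encodes cyclin E (rank 246, beside WBGene00022955), and ranked 163, 1464, 896 and 9786. By replicate, from 1 to 4, a non-coding gene was near 14.5%, 7.02%, 9.76% and 13.8% of strong intronic peaks and near 4.06%, 4.28%, 4.195% and 4.65% of the rest. The difference was 6.97 ± 3.49 points (SD, n = 4; exact sign-flip permutation p = 0.13). It was 13.2 points when exons of non-coding genes were allowed, 11.7 with as many strongest peaks as the IDR list holds and 3.75 with the 4000 strongest. Strong promoter peaks had such a gene at 18.8% and strong intergenic peaks at 16.2%, shares near that of the members. Strong exonic peaks, a class that includes exons of non-coding genes, had one at 67.7%. A snoRNA gene lay near 5.3% of members, 4.4% of strong intergenic, 2.9% of strong promoter and 11.2% of strong exonic peaks. For tRNA genes these shares were 3.9%, 3.2%, 2.9% and 16.8%. No ChIP of another protein was analysed here, so sites of EGL-27 alone cannot be told apart from loci that are recovered with many proteins.

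The members were richer in G and C and poorer in repeats than weaker intronic peaks. Within 50 bp of the summit the mean GC content was 45.1%, against 35.5% at weaker intronic peaks and 31.9% over all intronic bases. For replicates 1 to 4 it was 43.2%, 36.6%, 39.5% and 41.0% at strong peaks and 34.8%, 34.4%, 34.4% and 35.2% at the rest, a difference of 5.39 ± 2.55 points (SD, n = 4; exact sign-flip permutation p = 0.13). Bases masked as repeats made up 15.8% of the members' windows and 41.8% of those of weaker peaks. Strong peaks elsewhere were similar, with GC contents of 45.4% in promoter windows, 44.1% in intergenic DNA and 47.5% in exons, and masked shares of 19.9%, 17.3% and 13.5%. Over replicates the masked share differed by -16.3 ± 5.88 points (n = 4; exact permutation p = 0.13). GC content can change how well DNA is sheared and amplified, and its part in the peak scores was not tested. The motif shares below are therefore also given with weaker peaks weighted to the GC content of strong ones.

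The next sequences are the strongest members on chromosomes II to V, beyond those above, with a GAGA repeat, a TGATAA or an E-box. They show how the words sit around the summit, which is the middle base. Windows are on the + strand of ce11, from RefSeq, with the same words in capitals.
ccch-1, rank 115, chrV:11532342-11532442: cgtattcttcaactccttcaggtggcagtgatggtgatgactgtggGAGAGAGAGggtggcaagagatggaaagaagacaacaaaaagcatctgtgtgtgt
daf-5, rank 139, chrII:14040469-14040569: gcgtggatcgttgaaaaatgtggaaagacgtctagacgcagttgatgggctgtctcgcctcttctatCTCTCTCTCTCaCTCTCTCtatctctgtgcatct
D2023.3, rank 72, chrV:11802553-11802653: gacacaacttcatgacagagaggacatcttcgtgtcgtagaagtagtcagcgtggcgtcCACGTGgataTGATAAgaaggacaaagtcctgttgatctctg
pkg-2, rank 144, chrIV:8527698-8527798: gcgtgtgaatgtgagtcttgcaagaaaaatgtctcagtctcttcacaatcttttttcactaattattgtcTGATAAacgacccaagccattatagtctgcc
Y43F8B.2, rank 44, chrV:19529344-19529444: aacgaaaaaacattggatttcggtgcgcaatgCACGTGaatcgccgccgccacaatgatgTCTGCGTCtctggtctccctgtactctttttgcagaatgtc
tbc-6, rank 47, chrII:6849467-6849567: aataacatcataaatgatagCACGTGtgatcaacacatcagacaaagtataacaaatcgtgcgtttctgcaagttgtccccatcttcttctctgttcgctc

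In ccch-1 the GAGA repeat starts at -4 and -2 from the summit, and in daf-5 it occurs at 17 to 29 on the other strand. In D2023.3 an E-box at 9 is followed by a TGATAA at 19, while tbc-6, next to egl-27, has an E-box alone at -30. The Y43F8B.2 window holds both an E-box at -18 and TCTGCGTC at 10.

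The GAGA repeat GAGAGAG stood within 50 bp of 53 members (18.8%), against 3.75% of all autosomal intronic peaks. In replicates 1 to 4 it was near 17.4%, 5.01%, 8.13% and 11.3% of strong intronic peaks and near 2.59%, 2.61%, 2.75% and 3.14% of the rest. Every strong share was above every other, with a difference of 7.69 ± 5.28 points (SD, n = 4; exact sign-flip permutation p = 0.13). It was 5.84 points with weaker peaks weighted to GC content. The replicates differed widely in it, from 2.41 points in replicate 2 to 14.8 in replicate 1. Among strong intergenic peaks the share was 22.7% and among strong promoter peaks 10.3%.

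TGATAA stood near 48 members (17.02%), against 10.1% of all autosomal intronic peaks. By replicate, from 1 to 4, it was near 14.8%, 11.0%, 14.9% and 10.7% of strong peaks and near 9.50%, 9.87%, 9.001% and 9.75% of the rest. The difference of 3.33 ± 2.63 points (SD, n = 4; exact sign-flip permutation p = 0.13) was 1.16 and 0.983 points in replicates 2 and 4. It was 5.14 points after weighting to GC content. With as many strongest peaks as the IDR list holds it was 0.968 points (exact permutation p = 0.75), and with the 4000 strongest 1.31 points (exact permutation p = 0.5), above 0 in 2 of 4 replicates in both. Of the 48 members with TGATAA and the 53 with GAGAGAG, 2 had both, and this overlap was not compared with other peaks. The TGATAA share was 18.3% among strong intergenic and 10.2% among strong promoter peaks.

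The E-box CACGTG stood near 22 members (7.80%), against 2.2% of all autosomal intronic peaks. For replicates 1 to 4 it was near 6.11%, 5.51%, 5.96% and 3.07% of strong peaks and near 1.93%, 1.40%, 1.47% and 1.80% of the rest. The difference was 3.51 ± 1.51 points (SD, n = 4; exact sign-flip permutation p = 0.13), and 2.97 points after weighting to GC content. Among strong peaks elsewhere the E-box was near 7.45% in exons, 6.19% in intergenic DNA and 4.40% in promoter windows. Hosts included Y43F8B.2 (rank 44), tbc-6 (rank 47), D2023.3 (rank 72) and E01G4.3 (rank 131).

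TGANTCA stood near 11 members (3.90%), against 2.84% of all autosomal intronic peaks, and its difference over replicates was 0.700 ± 0.716 points, above 0 in 3 of 4 (n = 4; exact sign-flip permutation p = 0.25). Runs of 8 A or T, AAAAAAAA on either strand, stood near 13 members (4.61%), against 15.7% of all autosomal intronic peaks. They were less frequent at strong peaks in 4 of 4 replicates, by -5.62 ± 3.07 points (n = 4; exact sign-flip permutation p = 0.13). After weighting to GC content the difference was -0.243 points and below 0 in 2 of 4 (exact permutation p = 0.75).

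The word TCTGCGTC was picked out later than the other words, after the windows had been read, and is described without a test. Among all words of 8 bases it had the highest excess, in percentage points, near members over weaker intronic peaks weighted to GC content. It stood near 28 members (9.93%), against 1.37% of all autosomal intronic peaks, 0.970% of weaker ones and 2.05% of these after weighting. Its share was 18.3% among members of ranks 1 to 500, and 4.48%, 8.45% and 8.22% in the next 3 steps of 500 ranks. In replicates 1 to 4 it was near 8.68%, 2.01%, 5.42% and 4.29% of strong intronic peaks and near 0.852%, 0.931%, 0.941% and 1.55% of the rest. Members with it included Y111B2A.12 (rank 11), egl-27 (rank 36), Y43F8B.2 (rank 44), zfp-1 (rank 65), epg-9 (rank 162), mpk-1 (rank 190) and mnk-1 (rank 223). It stood near 8.52% of strong promoter peaks and 11.5% of strong intergenic peaks, so strong peaks outside introns had it too. Of the 28 members 22 had no GAGAGAG and 6 had it, beside 53 of all 282 members (18.8%) that had it. A matching word is a description of the sequence and not a bound site.

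**Figure D3:**
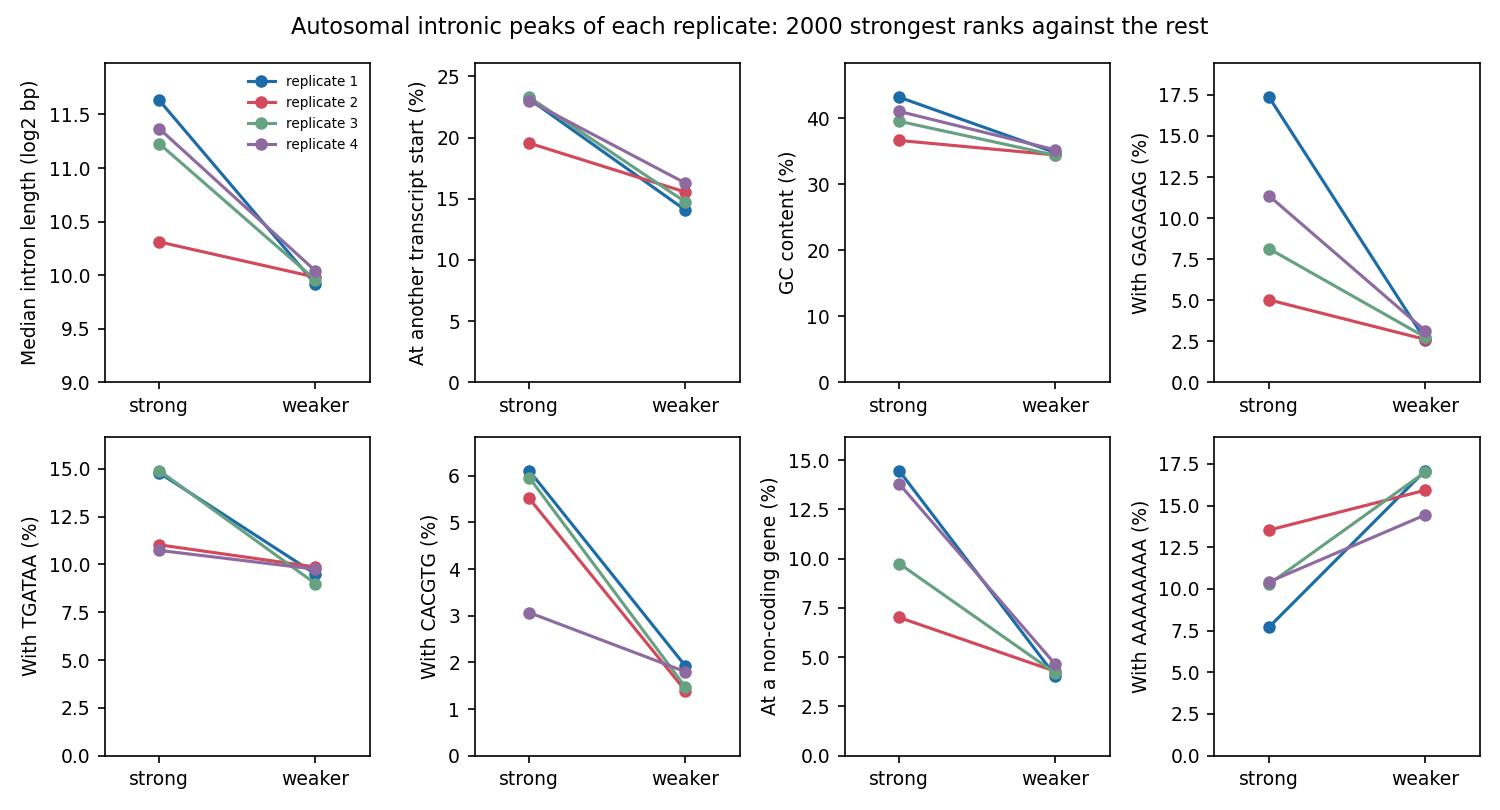
Features of autosomal intronic peaks in each replicate. Each line joins the value among the 2000 strongest peaks of a replicate (strong) to that among its other peaks (weaker), and the y axes give log2 bp for intron length and percent for the other features. Replicate 1 has the steepest line for intron length, GC content and GAGAGAG, and the AAAAAAAA share alone is lower among strong peaks, in all 4 replicates.

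Members were not spread evenly over the autosomes. Chromosomes II, III and IV held 67, 63 and 66, and I and V held 43 each. Per megabase of intronic sequence this was 15.9, 13.1 and 12.9 on II, III and IV and 7.88 and 8.07 on I and V. Weaker intronic peaks numbered 1152, 1234 and 1157 on II, III and IV and 1303 and 1136 on I and V. Strong peaks outside introns were not counted by chromosome, so the unevenness cannot be called particular to the members. Of the 67 on II, 10 lay within 50 kb of egl-27. The middle of the chromosomes, 1 of 3 equal lengths and known to be poorer in repeats than the arms, held 136 members (48.2%), against 33.02% of weaker intronic peaks and 27.2% of intronic bases. Among other strong autosomal peaks it held 45.6% of those in promoter windows, 41.9% of intergenic and 54.7% of exonic ones, a range that includes the members' share. By replicate, from 1 to 4, the middle share was 46.3%, 40.1%, 45.0% and 42.9% of strong peaks and 32.8%, 33.8%, 33% and 33.99% of the rest. The difference was 10.2 ± 3.22 points (SD, n = 4; exact sign-flip permutation p = 0.13).

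Members were found in the replicates about as often as other strong peaks. A summit within 200 bp among the 2000 strongest of replicates 1 to 4 was present for 186, 83, 127 and 117 members. These are 65.96%, 29.4%, 45.0% and 41.5%, against 62.9%, 26%, 45.1% and 44.4% of all 1510 autosomal peaks of ranks 1 to 2000. The mean was 45.5% ± 15.2 for members and 44.4% ± 15.1 for the others (SD, n = 4), and the difference of 1.08 ± 3.63 points was above 0 in 2 of 4 replicates (exact sign-flip permutation p = 0.5). Replicate 1 found the most and replicate 2 the fewest in every class of peak.

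By number of replicates, 20 members were among the 2000 strongest in all 4 (7.09%, against 5.1% of all 1510), 49 in 3, 95 in 2, 96 in 1 and 22 in none. The 20 lay in 16 genes: pqn-41 with 3, egl-27 and zfp-1 with 2 each, and Y111B2A.12, D2023.3, ccch-1, Y43F8C.7, daf-5, pkg-2, mpk-1, rol-3, vps-25, Y50D7A.1, nhr-19, din-1 and mbk-2 with 1 each. The summit window of the Y50D7A.1 member (rank 445) was 100% masked as repeat, with a GC content of 17.8%. Over all members the means were 15.8% masked and 45.1% GC. With the full lists 73 members were present in all 4 (25.9%, against 24%). The member in T02E1.2 (rank 1525) was in none of the full lists. The authors' IDR list held 107 members (37.9%, against 39.3%). These were the 107 members of ranks up to the length of that list, so this count follows the pooled score.

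**Figure D4:**
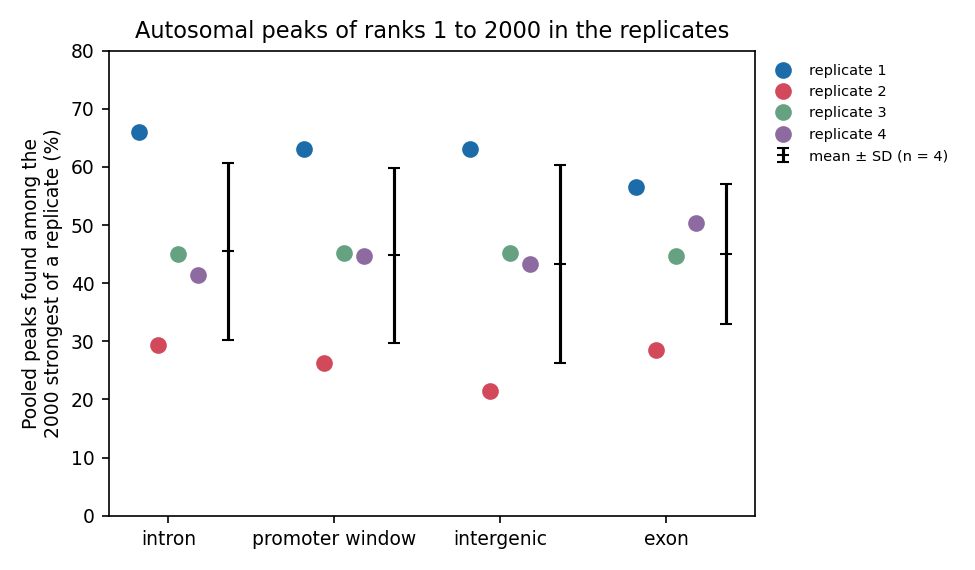
Recovery of autosomal peaks of pooled ranks 1 to 2000 in the replicates by place. Points give the percent of peaks of a class with a summit within 200 bp among the 2000 strongest of each replicate, and bars give the mean ± SD (n = 4). The intronic mean is 45.5% ± 15.2, and in all 4 classes replicate 1 is highest and replicate 2 lowest.

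Scores on either side of rank 2000 were close. The last members lay in Y105C5A.15, fkh-7 and rbm-34 at ranks 1983, 1992 and 1996, the last with a score of 16.4942. The first intronic peaks beyond it lay in mbk-2, T12G3.2 and vab-10 at ranks 2004, 2009 and 2015, the first with a score of 16.4662.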

How the data were processed

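EGL-27 was profiled by ChIP-seq in 4 replicates of 1 group, taken from the labels. By the deposited README texts, peak calling by the authors used each replicate and then the pooled alignments, against 1 control, and gave lists that include background; the IDR list was derived from these. The sources used here name no aligner, caller, filter or IDR threshold. The deposited score is the authors' signal value on an unstated scale, and only its order within a list was used. Read depth is unknown.

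Gene models were those of Ensembl release 115 on WBcel235 (ce11) and sequences came from RefSeq, on the same assembly. Exons of all annotated genes were excluded. Introns were the gaps between merged exons of the host gene. Both strands of the 50 bp on either side of a summit were searched for motifs. Non-coding genes, without pseudogenes and piRNAs, counted within 200 bp. Summits within 200 bp counted as shared.

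Strong (2000 highest scores) and other peaks were compared within each replicate's list by an exact two-sided sign-flip permutation test over the 4 differences. Python 3.11.15, numpy 2.4.6 and pandas 2.3.3 were used. On simulated data, 100 of 100 planted motif windows were recovered, and 314 of 1000 peaks with 300 planted were shared. Genes named were egl-27, hosts of the 20 strongest members, hosts of 3 or more, members strong in all 4 replicates, and up to 4 hosts a list; other hosts named as examples were chosen after their values were seen. The members, lists and motifs were chosen with earlier results of these data known. Alternatives changed the number of strong peaks, the exon rule, the 5′ ends, window and distance sizes, replicates, and GC, intron length or rank weights. Lists on ce10 were not used.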

Additional observations from a re-analysis of the deposited data

Results flagged for a closer look

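In groups of 4 replicates, 42 sets of values were examined for 1 replicate far from the other 3, and 3 were picked out. Chance picks out about 1 in 20 sets. The share of strong intronic peaks in a window at an inner transcript start was 19.5% in replicate 2, against 23.0% to 23.3% in the other 3. The CACGTG difference between strong and other intronic peaks was 1.27 points in replicate 4, against 4.12 to 4.49 points. The TGANTCA difference was -0.364 points in replicate 4, against 0.930 to 1.18 points.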

How the results depend on the processing

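Of 171 alternatives, 168 kept the direction and side of the threshold, or a count within 1.5 times. The exact test on 4 replicates cannot reach the threshold of 0.05, so staying on that side says nothing about stability. Recovery of members against other strong peaks turned from 1.08 to -0.275 points with the 4000 strongest peaks per replicate, and TGANTCA from 0.700 to -0.475 points with as many strongest peaks as the IDR list holds; the cause was not tested. The number of members was 107 at ranks up to the length of the IDR list, which takes fewer peaks, 343 when exons of non-coding genes were allowed, 210 with windows at all transcript 5′ ends and 261 with windows from 2000 bp upstream. Besides those in the report, values moved by over 1.5 times with the 4000 strongest peaks for GAGAGAG (4.46 points), CACGTG (1.80), GC content (3.40) and log2 intron length (0.702), with the IDR length for GC content (8.37), within 100 bp of the summit for GAGAGAG (14.1), TGANTCA (1.15) and AAAAAAAA (-9.23), and with windows from 500 bp upstream for inner transcript starts (4.53), and recovery ranged from -0.275 to 2.62. Leaving out 1 replicate at a time gave 5.33 to 9.46 points for GAGAGAG, 2.48 to 4.12 for TGATAA, 3.19 to 4.26 for CACGTG, 0.542 to 1.05 for TGANTCA, 3.90 to 7.70 for first introns and 0.0402 to 2.62 for recovery. No difference changed sign when a replicate was left out. Alternatives around egl-27, for 1 peak per gene and for GC and intron length weights, and the results on repeats and the middle of chromosomes, were added after the data were seen. There is 1 group only, so no samples pair across groups. Strong and other peaks were compared within each replicate, so their values are paired by replicate in the sign-flip test. Unknown depth and the shared control limit what replicate ranks show.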
